A study of Mus musculus with 6 samples.

Results

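The genes described here encode the chaperones of the endoplasmic reticulum (ER), the sensors and transcription factors of the unfolded protein response, and the machinery that carries proteins into the ER and misfolded ones out of it. A set of 35 gene symbols was taken from the deposited count tables, and all 35 were found among the 55401 genes listed. The counts compare NIH3T3 cells given IPRN (3 libraries) with NIH3T3 cells given the solvent DMSO (3 libraries). NIH3T3 is an immortalised fibroblast line from mouse embryos, and both groups carry the wild-type genotype. IPRN is named only by this abbreviation in the labels, which give neither its dose nor the time of exposure. Per the design text, the cells were induced with hydrogen peroxide and TGF-β as a model of cancer-associated fibroblasts before IPRN was added. Whether the DMSO cells received the same induction is not stated for each sample, and no library from cells without induction was analysed here. The labels do not say whether replicates came from separate cultures, so the p-values rest on variation among these 6 libraries that may be technical.

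Proteins that enter the ER are folded with the help of BiP, an Hsp70 chaperone that works in cycles of ATP hydrolysis, of the Hsp90 of this compartment, of lectins that read N-linked sugars, and of disulfide isomerases. When unfolded proteins accumulate, the sensors IRE1, PERK and ATF6 raise the expression of these folding genes and lower the load of new protein, and proteins that fail to fold are retrotranslocated and degraded (ER-associated degradation). Fibroblasts depend on this system to fold and export collagens and other matrix proteins.

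In the promoters of several of these genes lies the ER stress element, a pair of short boxes through which ATF6 and XBP1, with the factor NF-Y at the first box, are known to act. The element was searched as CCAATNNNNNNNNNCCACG on both strands of the RefSeq promoter windows (GRCm38.p6, 250 bases before to 50 bases after each start). A window was listed for 28 of the 35 genes. An exact match occurred in 9 of these 28 genes (32.1%), or 9 of their 29 windows, against 0.119% of all 32851 windows. Since the element was already known from several of these genes, this excess is a description and not a test. The matches are shown because the 3 members that fell with IPRN, Hsp90b1, Dnajc3 and Canx, are among these 9. Each line gives the match with 5 flanking bases on either side, 5′ to 3′ on the strand of the element, and the capitals mark the CCAAT and CCACG boxes.
Hsp90b1, 107 to 89 bases before the start: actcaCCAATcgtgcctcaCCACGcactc
Hsp90b1, 212 to 194 bases before the start: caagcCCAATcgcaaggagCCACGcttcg
Dnajc3, 105 to 87 bases before the start: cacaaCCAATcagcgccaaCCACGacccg
Canx, 145 to 127 bases before the start: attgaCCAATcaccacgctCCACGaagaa
Hspa5, 65 to 47 bases before the start: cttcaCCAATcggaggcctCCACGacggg
Pdia6, 98 to 80 bases before the start: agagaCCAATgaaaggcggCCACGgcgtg
Calr, 162 to 144 bases before the start: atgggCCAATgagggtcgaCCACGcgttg
Creld2, 126 to 108 bases before the start: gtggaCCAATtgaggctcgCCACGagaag
Syvn1, 44 to 26 bases before the start: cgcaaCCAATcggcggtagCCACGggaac
Derl3, 156 to 138 bases before the start: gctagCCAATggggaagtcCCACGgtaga
Hsp90b1 was the only one of the 9 with 2 matches, and they lay on opposite strands. All positions are counted from the RefSeq start. The Hspa5 match (chr2:34772025-34772043) lies inside the deposited gene model, which begins at 34771970. For Dnajc3 and Derl3, the bases after the RefSeq start matched no GENCODE transcript of the gene.

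The total count per library lay between 60320282 and 78629444. Values below are read counts scaled to a common library size with TMM factors (CPM), and differences are log2 fold changes of IPRN over DMSO from edgeR's quasi-likelihood test. Two-sided p-values were adjusted for all 17159 genes tested (Benjamini-Hochberg), and a gene was said to rise or fall at an adjusted p under 0.05. Transcripts of the fibroblast marker list summed to between 23482 and 26421 CPM in IPRN libraries and between 21427 and 22490 CPM in DMSO libraries. Liver transcripts were found in some libraries: a list of 22 hepatocyte genes, none of them at 0 in every library, summed to 151, 61.9 and 23.1 CPM in IPRN 1, 2 and 3, against 45.2, 114 and 85.9 CPM in DMSO 1, 2 and 3. Alb, the defining hepatocyte transcript, had 42.8, 13.7 and 0.186 CPM in IPRN 1, 2 and 3, against 0, 21.2 and 11.5 CPM in DMSO 1, 2 and 3. A list of 10 macrophage and leukocyte genes summed to 141 CPM in IPRN 3, to 16.7 and 17.5 CPM in IPRN 1 and 2, and to between 3.25 and 16.7 CPM in DMSO libraries. Lyz2 made up 98 CPM of the sum in IPRN 3. Sums of the endothelial, epithelial, secretory, muscle and neural lists stayed at or under 31.9 CPM in every library.

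Of the 35 members, 34 had enough counts to be tested, 0 rose with IPRN, 3 fell and 31 did not pass the test. Over all genes tested, 5.47% were called, 2.46% higher and 3.01% lower. Among the 4361 genes averaging at least 50 CPM, these shares were larger, 6.03% higher and 7.18% lower. Of the tested members, 25 were in that class, the 3 that fell among them. DESeq2 called 7 members lower and 2 higher, beside 6.18% and 6.32% of its genes. The 3 that fell were Hsp90b1, Dnajc3 and Canx, all chaperones or co-chaperones, and their folds were small, from 1.16 to 1.34. Fitted fold changes were below 0 for 19 of the 34 and above 0 for 15, with a median of -0.03 (log2), against a median of 0.00156 over all genes tested, of which 49.8% had a fold change below 0. Medians by role lay on both sides of 0. The median log2 fold change was -0.18 for the 9 genes of the BiP cycle, -0.21 for the 3 Hsp90 and lectin chaperones and -0.11 for the 5 disulfide isomerases. It was 0.08 for 8 tested genes of ER-associated degradation, 0.06 for 5 stress sensors and 0.03 for 4 genes of the translocon and glycosylation. A test of the difference between roles was not made.

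**Figure D1:**
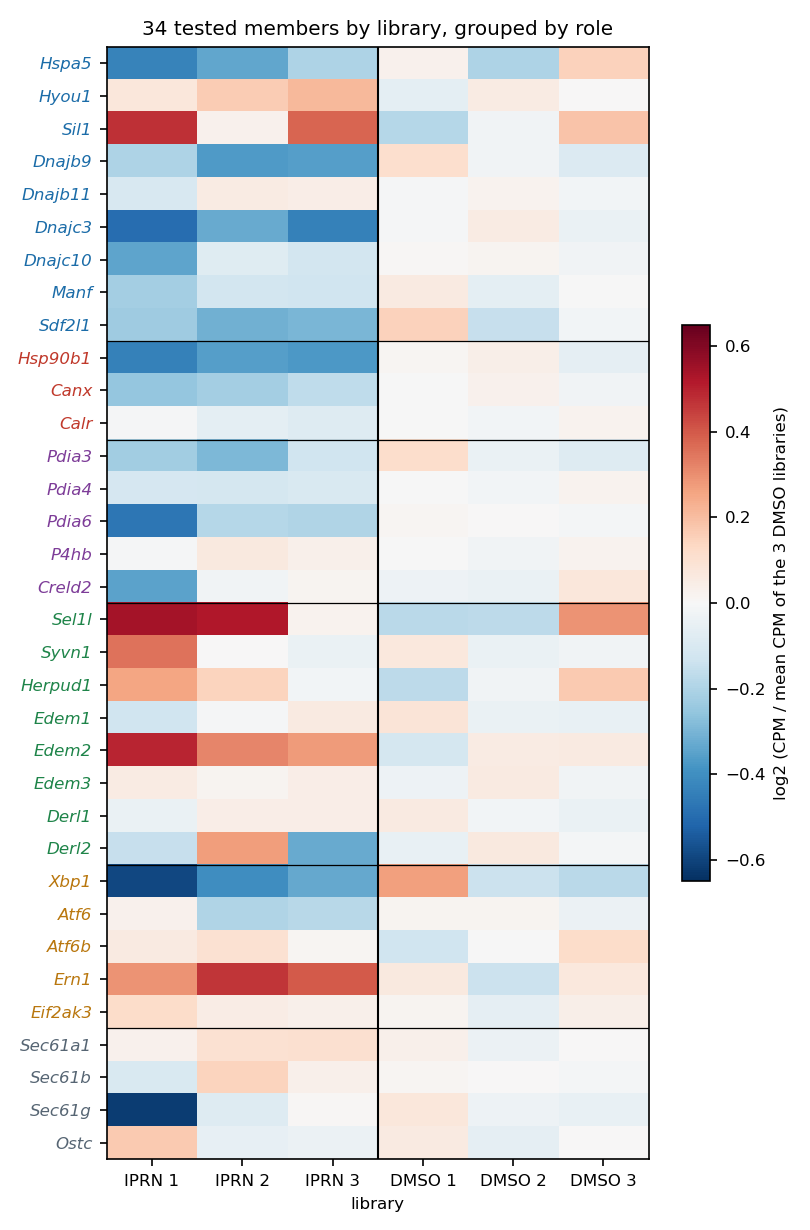
Heat map of the 34 tested members (rows, coloured and separated by role) in the 3 IPRN and the 3 DMSO libraries (columns); colour gives log2 of the CPM over the gene's mean CPM in DMSO libraries, blue for lower and red for higher. Most rows of the BiP cycle, the Hsp90 and lectin chaperones and the disulfide isomerases are blue in all 3 IPRN libraries, with the lowest values most often in IPRN 1.

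In 12 of the 34 tested members (35.3%), every IPRN library lay below every DMSO library, and over all genes tested this share was 14.7%. The 12 were Hspa5, Dnajb9, Dnajc3, Dnajc10, Manf, Sdf2l1, Hsp90b1, Canx, Pdia3, Pdia4, Pdia6 and Xbp1. The reverse order, every IPRN library above every DMSO library, held for 3 members (8.82%), Hyou1, Edem2 and Ern1, and for 14.9% of all genes tested. Both shares over all genes include low-count genes and were not taken apart for genes averaging at least 50 CPM, where calls were more frequent. An unadjusted p under 0.05 was reached by 12 members on the lower side (10.8% of all genes) and 3 on the higher side (11.2% of all genes). Among IPRN libraries, IPRN 1 held the lowest value for 18 of the 34 members and the highest for 12. The count of members without overlap was repeated without IPRN 1, an alternative chosen after seeing the data. Then 14 members lay below (20.7% of all genes) and 7 above (20.9% of all genes). Without IPRN 3, also chosen after seeing the data, 13 lay below (19.3%) and 5 above (20.1%). Without DMSO 1 and IPRN 3 together, 13 lay below (24.4%) and 7 above (24.6%).

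Summed over all 35 genes, the transcripts took 8662, 8926 and 8979 CPM in IPRN 1, 2 and 3, against 9857, 9590 and 9764 CPM in DMSO 1, 2 and 3. The sum averaged 8856 ± 170 CPM in IPRN libraries and 9737 ± 136 CPM in DMSO libraries (SD, n = 3 each), and the groups did not overlap. The 6 most abundant members made up 70.1% of the DMSO sum. CPM are shares of a library, so fewer cells expressing a gene and less of its RNA per cell cannot be told apart in these bulk samples.

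On the length-scaled values that the authors deposited (FPKM), the set spanned a wide range of levels. Calr, a calcium-binding lectin, stood highest at 456 ± 4.97 FPKM in IPRN libraries and 472 ± 5.71 FPKM in DMSO libraries (SD, n = 3 each). P4hb, the disulfide isomerase that also serves as a subunit of collagen prolyl hydroxylase, came next at 426 ± 16.4 and 417 ± 5.51 FPKM in IPRN and DMSO libraries. Hsp90b1 followed at 249 ± 11 FPKM in IPRN libraries and 325 ± 11.8 FPKM in DMSO libraries, then Pdia3, Hspa5, Canx, Pdia4 and Pdia6, the last at 92.6 ± 11.3 and 112 ± 1.12 FPKM in IPRN and DMSO libraries. Low levels were seen for the kinase sensors of the set: Eif2ak3 had 3.25 ± 0.0521 FPKM in IPRN libraries and 3.09 ± 0.104 FPKM in DMSO libraries, and Ern1 2.96 ± 0.218 and 2.26 ± 0.175 FPKM in IPRN and DMSO libraries. In this order of DMSO means, 19 of 34 neighbouring pairs had DMSO ranges that did not overlap. Hspa5 and Canx, the fifth and the sixth, overlapped, as did most pairs in the middle of the order from Dnajb11 to Dnajc10 and from Xbp1 to Hyou1.

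**Figure D2:**
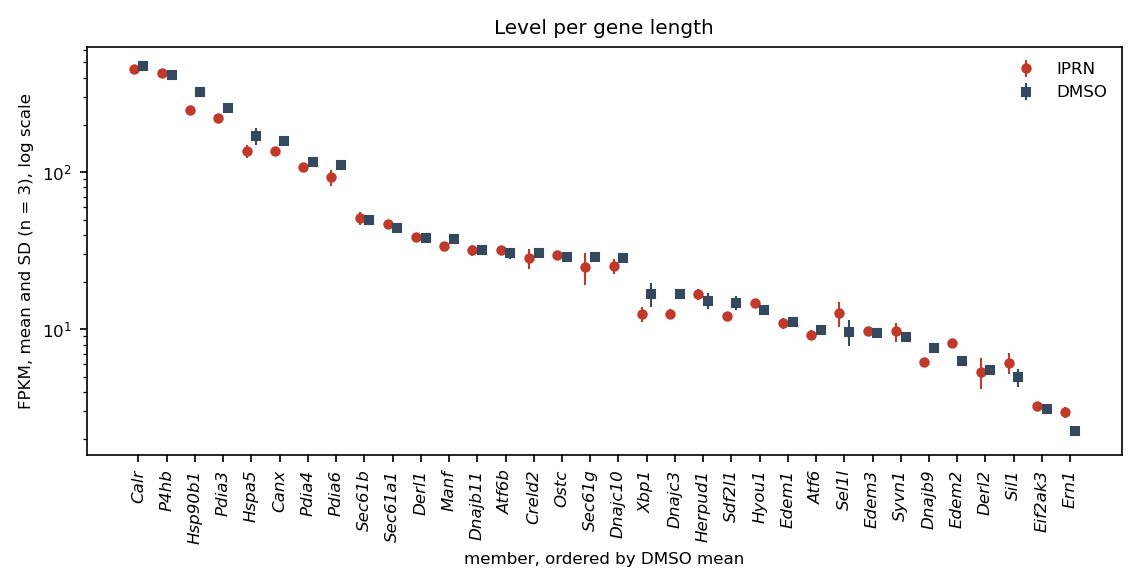
FPKM (log axis) of 34 members ordered by their DMSO mean, with IPRN (circles) left of DMSO (squares) and the SD over 3 libraries. Calr, P4hb and Hsp90b1 are highest, Eif2ak3 and Ern1 lowest. Derl3, which had 0 counts in all IPRN libraries, is not drawn.

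Among genes of the BiP cycle, 1 of 9 fell, Dnajc3, and 0 rose. At an unadjusted p under 0.05, 6 were lower and 1 higher, and DESeq2 called 3 lower and 0 higher. Dnajc3, which encodes P58IPK, a co-chaperone that delivers unfolded clients to BiP, had 68.0, 76.4 and 70.6 CPM in IPRN 1, 2 and 3, against 95.2, 99.2 and 92.9 CPM in DMSO 1, 2 and 3. All IPRN values lay well below all DMSO values. Dnajc3 was thus 1.34-fold lower with IPRN (log2 fold change -0.42, SE 0.0612, adjusted p = 0.0176 in edgeR's quasi-likelihood test). Its gene (ENSMUSG00000022136, chromosome 14, 118937976 to 118981697, plus strand) shares no exonic base with another gene. The call was lost without DMSO 1, DMSO 2, DMSO 3 or IPRN 3, at edgeR adjusted p-values of 0.0623 to 0.0912.

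Hspa5 encodes BiP itself, the central chaperone of the compartment and the gene most often read as a gauge of the unfolded protein response. It had 595, 636 and 697.8 CPM in IPRN 1, 2 and 3, against 820, 698.0 and 891 CPM in DMSO 1, 2 and 3. The highest IPRN library lay just under the lowest DMSO library, DMSO 2, and both groups were widely spread. The log2 fold change was -0.32 (SE 0.10), a level 1.25-fold lower with IPRN, and it did not pass the edgeR test (adjusted p = 0.118). DESeq2 called it lower (adjusted p = 0.0288).

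The other partners of BiP differed in sign. Dnajb9, which encodes ERdj4, a co-chaperone that binds BiP to IRE1, averaged 17.6 ± 1.16 CPM in IPRN libraries and 21.8 ± 1.54 CPM in DMSO libraries (SD, n = 3 each), a log2 difference of -0.31 that edgeR did not call (adjusted p = 0.108, and 0.0451 in DESeq2, which called it). Sdf2l1, which works with ERdj co-chaperones, had 15.5, 14.7 and 14.8 CPM in IPRN 1, 2 and 3, against 20.2, 16.4 and 18 CPM in DMSO 1, 2 and 3, without overlap (-0.28, edgeR adjusted p = 0.159). Manf, a small secreted ER stress factor that binds BiP, averaged 132 ± 5.11 CPM in IPRN libraries and 147 ± 6.27 CPM in DMSO libraries (SD, n = 3 each). Dnajc10, the disulfide reductase ERdj5, had 125, 150.2 and 146 CPM in IPRN 1, 2 and 3, and between 156 and 160.1 CPM in DMSO libraries, so that IPRN 1 stood apart from the rest. Neither passed the edgeR test (adjusted p = 0.147 for Manf and 0.224 for Dnajc10). Dnajb11, the co-chaperone ERdj3, was level at 115 ± 6.92 and 115 ± 1.74 CPM in IPRN and DMSO libraries (SD, n = 3 each).

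Both exchange factors that free BiP of ADP had positive fold changes, without a call. Hyou1 (GRP170) had 112, 119.7 and 124 CPM in IPRN 1, 2 and 3, against 102, 111 and 107 CPM in DMSO 1, 2 and 3, without overlap (log2 fold change 0.15, edgeR adjusted p = 0.180). Sil1 averaged 23.5 ± 3.68 CPM in IPRN libraries and 19 ± 2.5 CPM in DMSO libraries (SD, n = 3 each), and the groups overlapped (0.31, edgeR adjusted p = 0.292).

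Of the 3 Hsp90 and lectin chaperones, 2 fell, Hsp90b1 and Canx, and the fold change of the third was below 0 as well. Hsp90b1 encodes GRP94, the Hsp90 of the ER lumen, which folds integrins and Toll-like receptors. Its level was 1076, 1137 and 1127 CPM in IPRN 1, 2 and 3, against 1473, 1498 and 1402 CPM in DMSO 1, 2 and 3. A wide gap separated the groups, and replicates within a group lay close together. Hsp90b1 was 1.31-fold lower with IPRN (log2 fold change -0.39, SE 0.0463, adjusted p = 0.00887 in edgeR's quasi-likelihood test), the smallest adjusted p among the members. Without DMSO 1 or DMSO 2, the edgeR adjusted p was 0.0588 and 0.0580. The gene (ENSMUSG00000020048, chromosome 10, 86690209 to 86705509, minus strand) shares 15.7% of its exonic bases with 3 other gene models, from which its reads may not be separable.

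Canx encodes calnexin, the membrane lectin that holds newly made glycoproteins during folding. It had 690.4, 706 and 732 CPM in IPRN 1, 2 and 3, against 819.7, 838 and 809 CPM in DMSO 1, 2 and 3. The groups did not overlap, and the difference was the smallest of the 3 called, 1.16-fold lower with IPRN (log2 fold change -0.21, SE 0.0435, edgeR adjusted p = 0.0407). Canx (ENSMUSG00000020368, chromosome 11, 50293961 to 50325673, minus strand) shares no exonic base with another gene. It was no longer called when any library other than IPRN 1 was left out, at edgeR adjusted p-values of 0.0747 to 0.168. Calr, the soluble counterpart of Canx with the same sugar specificity, averaged 1460 ± 39.7 CPM in IPRN libraries and 1514 ± 21.7 CPM in DMSO libraries (SD, n = 3 each). Calr values overlapped between groups (log2 fold change -0.05, edgeR adjusted p = 0.538).

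**Figure D3:**
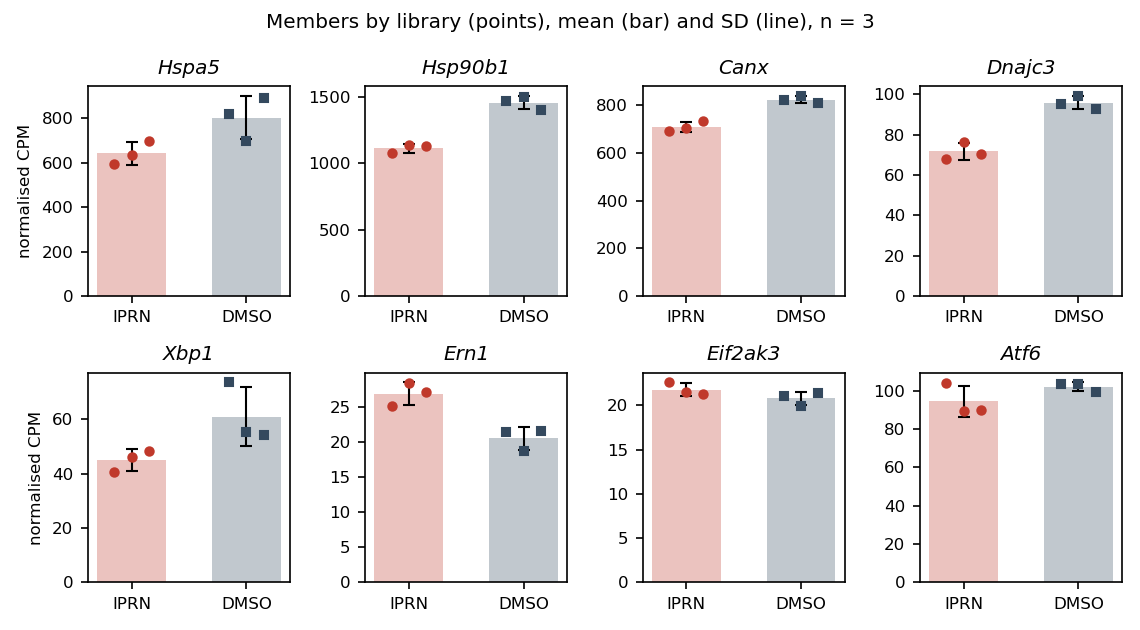
CPM of 8 members in each library (points), with the mean (bar) and SD (line) of the 3 IPRN libraries left of the 3 DMSO libraries; each panel has its own axis from 0. Hsp90b1, Canx and Dnajc3 separate with a clear gap, Hspa5 and Xbp1 are lower in IPRN libraries with a wide DMSO spread, Ern1 is higher in IPRN libraries, and Eif2ak3 and Atf6 overlap.

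With 1 library left out in turn, the number of members that fell was 0 without DMSO 1 or DMSO 2, 1 without DMSO 3 or without IPRN 3, 2 without IPRN 2 and 4 without IPRN 1. The share of all genes called lower in these fits was 0.578%, 0.595%, 0.742%, 0.963%, 0.910% and 3.32% in that order. Apart from Hp, which was lower in IPRN libraries, the liver list summed to 8.18 CPM in IPRN 3 and 5.79 CPM in DMSO 1, and with both left out 0 members fell (0.238% of all genes). With a term for the libraries that hold liver transcripts, Hsp90b1 and Dnajc3 kept their calls (edgeR adjusted p = 0.0311 and 0.0413) and Canx did not (0.0840), with 1.47% of all genes called lower. Without IPRN 3, the library with the macrophage transcripts, Hsp90b1 kept its call (edgeR adjusted p = 0.0380). The part of liver or macrophage RNA in these differences was not tested beyond these fits.

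None of the 5 disulfide isomerases and related oxidoreductases passed the edgeR test. Fitted fold changes were negative for 4 of them, 3 had an unadjusted p under 0.05 on the lower side, and DESeq2 called 1 lower. That gene was Pdia6, a BiP-associated isomerase that also attenuates IRE1. Pdia6 had 337, 409 and 408 CPM in IPRN 1, 2 and 3, against 469.6, 467 and 462 CPM in DMSO 1, 2 and 3. IPRN 1 lay far below the other IPRN libraries, and no library overlapped the other group (log2 fold change -0.28, SE 0.0795, edgeR adjusted p = 0.0965). Without IPRN 1 the difference shrank to -0.19 and its spread with it, and edgeR called it (adjusted p = 0.0240), as did DESeq2 on all libraries (adjusted p = 0.0224).

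Pdia3 (ERp57), which forms disulfides in clients of calnexin and calreticulin, averaged 772 ± 43.1 CPM in IPRN libraries and 896 ± 65.95 CPM in DMSO libraries (SD, n = 3 each; log2 fold change -0.21, edgeR adjusted p = 0.126). Pdia4 (ERp72) had 288, 287 and 290.1 CPM in IPRN 1, 2 and 3, against 310.3, 307 and 316 CPM in DMSO 1, 2 and 3. The groups of Pdia4 did not overlap, yet the difference was only -0.11 (edgeR adjusted p = 0.166). P4hb, the most abundant isomerase, averaged 1355 ± 34 CPM in IPRN libraries and 1328 ± 20.6 CPM in DMSO libraries (SD, n = 3 each; log2 fold change 0.03, edgeR adjusted p = 0.748). Creld2, an ER stress gene with isomerase activity, had overlapping groups (-0.11, edgeR adjusted p = 0.634).

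**Figure D4:**
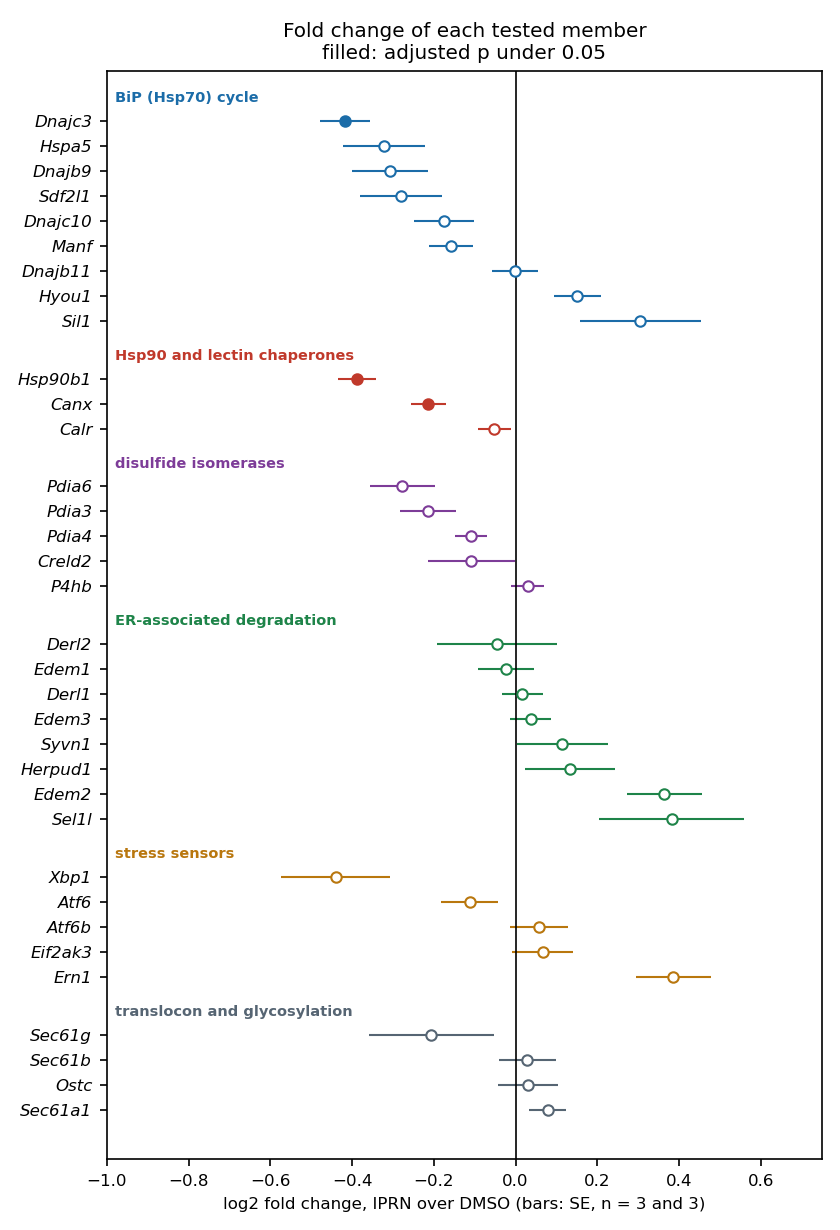
Log2 fold change, IPRN over DMSO, of the 34 tested members by role, with SE bars (n = 3 and 3); filled points passed an adjusted p under 0.05. The filled points, Dnajc3, Hsp90b1 and Canx, lie between -0.42 and -0.21, and members of ER-associated degradation lie mostly above 0.

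In ER-associated degradation, 0 of 8 tested genes rose or fell in the edgeR test, and 6 of the 8 fold changes were positive. On the higher side, 1 gene had an unadjusted p under 0.05 and was called by DESeq2, Edem2. Edem2, a mannosidase that starts the trimming of glycans on misfolded proteins, had 34.3, 30.3 and 29.5 CPM in IPRN 1, 2 and 3, against 22.5, 25.3 and 25.4 CPM in DMSO 1, 2 and 3. The groups did not overlap, and the difference of 0.36 (SE 0.0923) missed the edgeR threshold (adjusted p = 0.0722, and 0.0101 in DESeq2). Sel1l, the adaptor of the HRD1 ubiquitin ligase, had 134, 132 and 93.8 CPM in IPRN 1, 2 and 3, against 81.8, 81.9 and 113 CPM in DMSO 1, 2 and 3. In each group 1 library, IPRN 3 and DMSO 3, stood apart from the other 2, and the difference of 0.38 came with an SE of 0.178 (edgeR adjusted p = 0.274).

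Syvn1, the ligase HRD1, averaged 52.5 ± 8.14 CPM in IPRN libraries and 48.5 ± 2.03 CPM in DMSO libraries (SD, n = 3 each). Herpud1, which organises the HRD1 complex, averaged 43.4 ± 4.13 and 39.6 ± 4.66 CPM in IPRN and DMSO libraries (SD, n = 3 each). Both overlapped between groups (log2 fold changes 0.11 and 0.13, edgeR adjusted p = 0.633 and 0.565). The mannosidase genes Edem1 and Edem3 and the retrotranslocation genes Derl1 and Derl2 had fold changes between -0.05 and 0.04.

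Derl3, the third derlin, was at the edge of detection and was not tested. Its counts were 0, 0 and 0 in IPRN 1, 2 and 3, against 4, 21 and 8 in DMSO 1, 2 and 3. A floor of 3 counts over the IPRN group was set against 33 counts over the DMSO group. Scaled to the group totals, this floor was 10.9-fold below the DMSO value. The floor covers counting error in IPRN libraries only, and the DMSO counts entered without their error, so this fold is not a lower bound. PCR copies were not told apart. DMSO 2 held 21 of the 33 counts, and DMSO 1 held 4.

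None of the 5 sensor and transcription factor genes passed the edgeR test; Ern1 on the higher side and Xbp1 on the lower side had an unadjusted p under 0.05, and DESeq2 called both. Ern1 encodes IRE1, the kinase and endonuclease that splices Xbp1 mRNA. It had 25.2, 28.5 and 27.1 CPM in IPRN 1, 2 and 3, against 21.5, 18.7 and 21.6 CPM in DMSO 1, 2 and 3. All IPRN values were higher, but the log2 fold change of 0.39 (SE 0.0922) did not pass (edgeR adjusted p = 0.0618). The adjusted p was 0.00576 in DESeq2, and edgeR called it over genes averaging at least 50 counts (adjusted p = 0.0497, with 4.10% of those genes called higher).

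Xbp1, the transcription factor that IRE1 activates by splicing, had 40.4, 46.0 and 48.4 CPM in IPRN 1, 2 and 3, against 73.5, 55.4 and 54.1 CPM in DMSO 1, 2 and 3. DMSO 1 stood far above the other DMSO libraries, and no IPRN library reached the lowest DMSO value. Its log2 fold change of -0.44 (SE 0.134) was the most negative of the 34 tested members and did not pass the edgeR test (adjusted p = 0.111, and 0.0209 in DESeq2). Gene-level counts do not separate the spliced from the unspliced form of Xbp1, so its splicing was not measured.

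Eif2ak3, which encodes PERK, the kinase that phosphorylates eIF2α, had 22.6, 21.5 and 21.2 CPM in IPRN 1, 2 and 3, against 21.1, 19.95 and 21.4 CPM in DMSO 1, 2 and 3. The ranges overlapped (log2 fold change 0.07, SE 0.0748, edgeR adjusted p = 0.686). Atf6, the membrane-bound factor released by proteolysis in the Golgi, had 104, 89.1 and 89.96 CPM in IPRN 1, 2 and 3, against 103, 103 and 99.4 CPM in DMSO 1, 2 and 3. IPRN 1 lay just above the highest DMSO value and the other IPRN libraries lay below all DMSO values (-0.11, SE 0.0701, edgeR adjusted p = 0.424). Its paralog Atf6b averaged 97.7 ± 2.92 CPM in IPRN libraries and 93.8 ± 8.01 CPM in DMSO libraries (SD, n = 3 each; edgeR adjusted p = 0.714).

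The 4 translocon and glycosylation genes were close to level, with 0 called by edgeR or DESeq2 and 0 at an unadjusted p under 0.05. Sec61a1, which forms the protein-conducting pore, averaged 349 ± 10.1 CPM in IPRN libraries and 330.4 ± 8.28 CPM in DMSO libraries (SD, n = 3 each; log2 fold change 0.08, edgeR adjusted p = 0.387). Sec61b, its beta subunit, and Ostc, a subunit of the oligosaccharyltransferase, each had a fold change of 0.03. Sec61g, the gamma subunit, had 51.5, 74.4 and 79.1 CPM in IPRN 1, 2 and 3, against 83.0, 77.1 and 76.2 CPM in DMSO 1, 2 and 3, and its log2 fold change of -0.21 was -0.04 without IPRN 1 (edgeR adjusted p = 0.510 and 0.794).

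The promoter element was set beside these values as a description. Of the 9 members with the exact ER stress element, 8 were tested. Their median log2 fold change was -0.24, with 7 below 0 and 1, Syvn1, above 0. EdgeR called 3 lower, beside 3.01% of all genes tested. At an unadjusted p under 0.05, 5 were lower and 0 higher, and DESeq2 called 5 lower and 0 higher. The 19 tested members with a window but no exact element had a median of -0.0016, with 10 below 0 and 9 above, and 0 were called by edgeR. In that group 6 lower and 2 higher genes had an unadjusted p under 0.05, and DESeq2 called 2 lower and 2 higher. Herpud1 and Dnajb11, which carry the second ER stress element described below, are part of that group. Among genes outside the set, 28 carried the element and 13 of them were tested. Their median was 0.02, with 5 below 0 and 8 above, and edgeR called 0. At an unadjusted p under 0.05, 2 of them were lower and 1 higher, and DESeq2 called 1 lower. The SE of these 13 ran from 0.0877 (Alg12) to 1.53 (1700122E12Rik), against 0.0409 (Calr) to 0.111 (Syvn1) in the 8 members. The median was that of Xlr3a (SE 0.380). At the larger errors, folds as small as those of the members could not be called. The outside genes with the smallest SE had log2 fold changes of 0.29 (Alg12), 0.20 (Pan2, SE 0.109), -0.44 (Spats2l, SE 0.128) and 0.39 (Ero1b, SE 0.174). A match says only that these letters lie in the window, and no binding was measured.

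**Figure D5:**
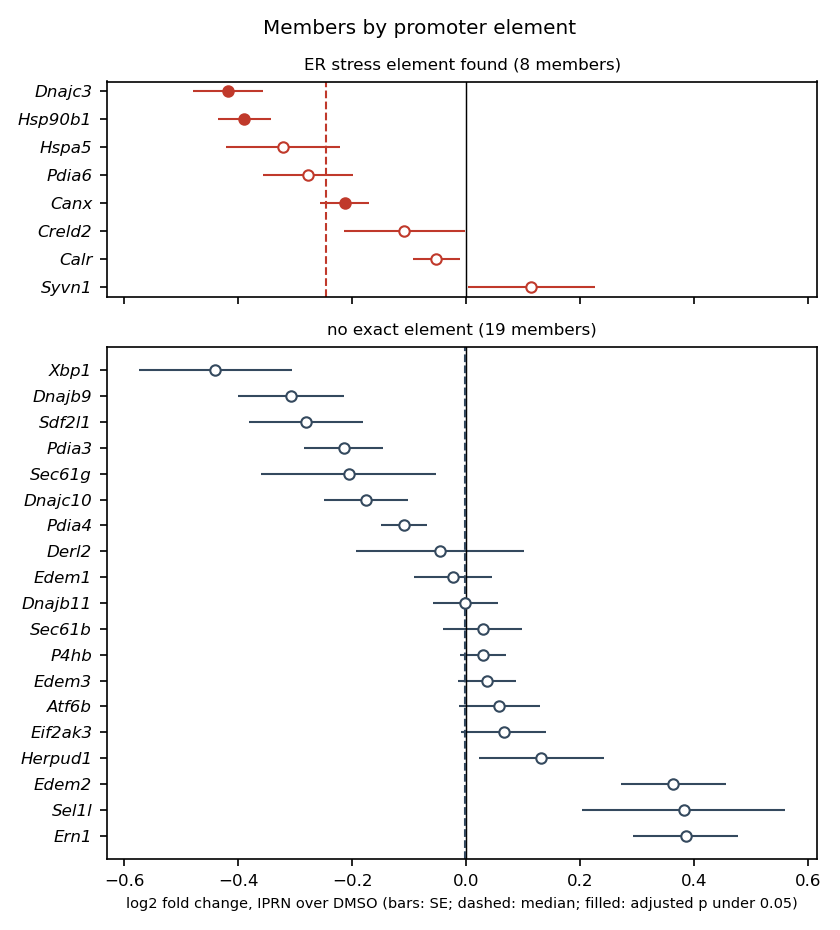
Log2 fold change, IPRN over DMSO, with SE (n = 3 and 3), of 8 tested members with an exact ER stress element in the promoter window (upper panel) and 19 with a window but no exact element (lower panel); dashed lines are medians and filled points passed an adjusted p under 0.05. The upper median is -0.24 and the lower one -0.0016, and the panels overlap, since Xbp1, Dnajb9 and Sdf2l1 in the lower panel are as low as members in the upper one.

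Promoter sequences of the 3 members that fell are given 5′ to 3′ along each gene, with the boxes of the element in capitals. For Hsp90b1 the window is shown up to the point where the deposited gene model begins. It spans chr10:86705510-86705694 on the minus strand and shows the match at 107 to 89 bases before the start as its reverse complement, CGTGG before ATTGG. For Dnajc3 (chr14:118937682-118937931, plus strand) and Canx (chr11:50325674-50325923, minus strand) all 250 bases before the RefSeq start are shown.
Hsp90b1: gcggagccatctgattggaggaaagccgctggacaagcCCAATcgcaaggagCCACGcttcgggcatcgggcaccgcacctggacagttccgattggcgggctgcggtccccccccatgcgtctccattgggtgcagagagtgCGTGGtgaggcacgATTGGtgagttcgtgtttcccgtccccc
Dnajc3: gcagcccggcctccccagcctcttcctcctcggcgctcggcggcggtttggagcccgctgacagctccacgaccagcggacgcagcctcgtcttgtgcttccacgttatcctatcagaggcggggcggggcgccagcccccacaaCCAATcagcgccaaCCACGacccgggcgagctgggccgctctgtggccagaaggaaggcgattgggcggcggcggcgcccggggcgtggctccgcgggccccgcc
Canx: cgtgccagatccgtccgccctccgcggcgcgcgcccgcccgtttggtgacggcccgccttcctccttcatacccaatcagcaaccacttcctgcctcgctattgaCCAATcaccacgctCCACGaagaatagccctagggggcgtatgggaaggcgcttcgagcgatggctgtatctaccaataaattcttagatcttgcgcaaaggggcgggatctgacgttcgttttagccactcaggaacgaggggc
Other elements of the pathway were rarer in the member windows. The second ER stress element, ATTGGNCCACG, was found in Herpud1 and Dnajb11 and in 0.0365% of all windows. The XBP1 element TGACGTGG was found in 0 member windows and in 0.676% of all windows. The core of the element bound by ATF4, TGATGNAA, was found in 1 member window, Herpud1, and in 3.97% of all windows.

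Other genes of the pathway were read from 6 lists, in which 105 genes were tested, 6 rose, 4 fell and the median log2 fold change was -0.04. Over all genes tested, 2.46% rose and 3.01% fell. In the list of PERK and ATF4 output, which also holds Eif2s1, the gene for the PERK substrate eIF2α, 3 of 12 tested genes fell and 0 rose (median -0.22). At an unadjusted p under 0.05, 7 were lower and 1 higher, and DESeq2 called 5 lower and 0 higher. Atf3, a stress-induced transcription factor, had 3.04, 3.10 and 3.35 CPM in IPRN 1, 2 and 3, against 12.6, 13.2 and 12.4 CPM in DMSO 1, 2 and 3. Its fall of 4.02-fold (edgeR adjusted p = 0.000194) was far larger than that of any tested member and was called in all 13 other fits. Ppp1r15a (GADD34), the phosphatase subunit that reverses eIF2α phosphorylation, had 45.9, 37.9 and 40.5 CPM in IPRN 1, 2 and 3, against 73.0, 67.3 and 81.3 CPM in DMSO 1, 2 and 3, without overlap. It was 1.78-fold lower (edgeR adjusted p = 0.00892, and 0.0518 without DMSO 1). The third that fell was Eif2s1. Ddit3 (CHOP), the transcription factor linked to cell death under ER stress, averaged 40.8 CPM in IPRN libraries and 50.7 CPM in DMSO libraries and was not called (edgeR adjusted p = 0.153). The remaining genes of this list were not called by edgeR either. Log2 fold changes were below 0 for Atf4 (-0.37), Chac1 (-0.33), Ppp1r15b (-0.19), Cebpb (-0.09) and Asns (-0.06). They were above 0 for Nupr1 (0.33), Trib3 (0.20) and Sesn2 (0.08).

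Among partners of the stress sensors, 3 of 14 tested genes rose, beside 2.46% of all genes tested, and 0 fell (median 0.08). At an unadjusted p under 0.05, 4 were higher and 0 lower, and DESeq2 called 4 higher and 0 lower. Wfs1, an ER membrane protein that promotes the degradation of ATF6, averaged 40.0 ± 1.47 CPM in IPRN libraries and 29.6 ± 1.69 CPM in DMSO libraries (SD, n = 3 each), 1.35-fold higher (edgeR adjusted p = 0.0249). Tmbim6 (BAX inhibitor 1), which restrains IRE1, averaged 305 ± 5.46 CPM in IPRN libraries and 255 ± 10.4 CPM in DMSO libraries (SD, n = 3 each; edgeR adjusted p = 0.0315). Creb3l1, a relative of ATF6 that acts on collagen genes, rose as well.

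In the remaining lists, edgeR called 1 gene each, beside 5.47% of all genes tested. Os9, the lectin that hands glycoproteins to HRD1, was the 1 of 20 further degradation factors that rose. Its values were 130.2, 128 and 121 CPM in IPRN 1, 2 and 3, against 97.1, 92.4 and 96.1 CPM in DMSO 1, 2 and 3, a difference of 1.33-fold without overlap (edgeR adjusted p = 0.0107). Prkcsh, the beta subunit of glucosidase II, was the 1 of 16 glycosylation genes that rose, to 185 ± 6.79 CPM in IPRN libraries, against 151 ± 5.52 CPM in DMSO libraries (SD, n = 3 each; edgeR adjusted p = 0.0272). Fkbp10, a prolyl isomerase that acts on collagen, was the 1 of 22 further oxidative folding genes that rose, at 257 ± 1.32 CPM in IPRN libraries and 216 ± 11.1 CPM in DMSO libraries (SD, n = 3 each; edgeR adjusted p = 0.0390). Spcs3, a subunit of signal peptidase, was the 1 of 21 translocation genes that fell, to 128 ± 10.1 CPM in IPRN libraries, against 159 ± 0.980 CPM in DMSO libraries (SD, n = 3 each; edgeR adjusted p = 0.0435). The translocation list had a median of -0.10, and 4 genes were lower and 0 higher at an unadjusted p under 0.05. In 8 of the 21, every IPRN library lay below every DMSO library (14.7% of all genes), and in 0 above (14.9%). Medians were 0.04 for glycosylation, 0.06 for further degradation factors and -0.06 for further oxidative folding. Os9 was not called without DMSO 1, 2 or 3 (edgeR adjusted p = 0.0549 to 0.0656). Prkcsh, Fkbp10, Spcs3, Wfs1, Tmbim6, Creb3l1 and Eif2s1 were not called when any library other than IPRN 1 was left out (edgeR adjusted p = 0.0589 to 0.159). Fkbp10 shares 6.58% of its exonic bases with Nt5c3b, Spcs3 2.16% with Asb5 and Ppp1r15a 0.409% with Tulp2.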

How the data were processed

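The members, lists and tests were chosen with earlier results of these data known. Per the labels' protocols, polyadenylated RNA was fragmented, copied with random primers and sequenced, with no step that marks the strand. Cutadapt 1.9 was used, per the submitters' processing notes. The sources used here do not give the aligner, the counting tool or the genome build. Positions of 32 of the 35 members equal those of the GENCODE GRCm38 annotation, which gave the exon overlaps.

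The authors deposited raw counts and FPKM per gene. Counts were tested with edgeR 4.0.16 in R 4.3.3 (TMM, expression filter with a minimum count of 10, quasi-likelihood test on the treatment group), checked on simulated counts. In that check a larger share of calls was false in DESeq2 than in edgeR, and edgeR missed most of the smallest changes set. The simulated counts were drawn with dispersions that edgeR had estimated, which may favour edgeR. Even the smallest change set was larger than the fold of any called member, so changes of that size were not checked. FPKM, as deposited by the authors, served only to set genes side by side. DESeq2 1.42.0, other filters and fits with libraries left out were alternatives. Counts of replicate pairs differed beyond sampling noise (chi-square over its degrees of freedom, 31.2 to 88.8), so no replicate was a resequenced copy of another in its group. Whether replicates came from separate cultures cannot be told from this value, and each library was treated as a sample. All called members, Hspa5, Xbp1, Ern1, Eif2ak3, Atf6 and, of each list, up to 2 called genes with the smallest adjusted p are given with values. Other values were chosen after being seen. Retention signals in the proteins were not analysed here.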

Additional observations from a re-analysis of the deposited data

How the results depend on the processing

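Of the 34 tested members, 26 kept the sign of their fold change in all 13 alternative fits, among them the 3 that fell; the other 8, none called and none beyond 0.11 in size, changed sign in 14 of 442 values. The median log2 fold change of the members lay between -0.04 and -0.01 with 1 library left out.

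The number of members called lower was 3 in the fit reported, 7 in DESeq2, 0 to 4 with 1 library left out (none without DMSO 1 or DMSO 2, 4 without IPRN 1) and 0 without DMSO 1 and IPRN 3 together. The number called higher was 0, against 2 in DESeq2, 1 over genes averaging 50 counts and 0 with any 1 library left out. Replicate numbers did not pair the libraries: IPRN and DMSO libraries of the same number had correlated deviations of 0.0653, -0.0194 and -0.0279 over 10535 genes. With the replicate block, 0 members and 103 genes in all were called. Members with every IPRN value above every DMSO value numbered 3, against 7 without IPRN 1, 5 without IPRN 3 and 7 without DMSO 1 and IPRN 3 together.

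Calls over all genes numbered 938, against 2143 in DESeq2, 621 with no filter on low counts, 429 with the liver term, 53 without DMSO 1 and IPRN 3 together, and 133 to 1047 with 1 library left out. DESeq2 called 5 genes of the PERK and ATF4 list, 3 of translocation, 3 of glycosylation, 4 of further degradation factors and 5 of further oxidative folding, against 3, 1, 1, 1 and 1 in the fit reported. Without DMSO 1 and IPRN 3 together, the PERK and ATF4 list had 1 call and the other 5 lists 0 each. The replicate block left 0 calls in the lists of translocation, glycosylation, further degradation factors and sensor partners. The liver term left 0 in translocation, glycosylation, oxidative folding and sensor partners. No filter on low counts left 0 in translocation and in oxidative folding, and genes averaging 50 counts gave 2 each in further degradation factors and oxidative folding. With 1 library left out, calls ranged from 1 to 4 in the PERK and ATF4 list, 0 to 2 in translocation, glycosylation and oxidative folding, 0 to 1 in further degradation factors and 0 to 5 in sensor partners. The causes were not tested. With 3 libraries a group, every call of a member was lost in at least 2 of the fits with 1 library left out.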
